A study of Homo sapiens with 48 samples.

Results

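The 39 HOX genes of the 4 human clusters were followed in 48 bulk RNA-seq libraries of cultured fibroblasts. They were taken from the gene table by symbol (HOXA, HOXB, HOXC or HOXD followed by a paralog number) and made up 39 of its 29744 rows, with 11 genes in HOXA, 10 in HOXB, 9 in HOXC and 9 in HOXD. The cells were CRL-4001, an immortalized human skin fibroblast line carrying an mNeonGreen reporter of IL-11 and derived through single-cell clones. Fibroblasts expressing Cas9 received a control guide (H47_Ctrl) or a GLIS3 guide (H47_KO), and fibroblasts expressing dCas9–VP64, a nuclease-dead Cas9 fused to an activator, received a control guide (VP64_Ctrl) or a GLIS3 guide (VP64_A). Guides were delivered by lentivirus and the cells were drug-selected as pools. Each of the 4 groups was given TGFβ and IL-1β at 10 ng/ml for 0, 6, 12 or 24 h, with staggered starts and a common harvest, and 3 libraries were made for each of the 16 conditions. The study describes its in vitro replicates in general as independent biological ones, but the labels of these libraries do not name separate cultures, so p-values measure the spread between these libraries, which may be in part technical. For the dCas9–VP64 cells the sample titles and the sample descriptions name opposite groups as the control, and the names here follow the descriptions. The cell line label is the same on all samples and does not tell the groups apart.

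HOX genes encode homeodomain transcription factors that assign position along the body axis and along the limb. In each cluster the low-numbered genes lie at the 3′ end and mark anterior or proximal positions, and the high-numbered genes lie at the 5′ end and mark posterior or distal positions. Fibroblasts taken from different skin sites keep different HOX patterns in culture. HOX proteins bind DNA together with PBX and MEIS cofactors, and Polycomb and Trithorax complexes hold the clusters silent or open.

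Library totals ranged from 2321990 to 10661004 estimated counts and were deepest at 0 h (median 6319867, against 4578207 at 6 h), so levels are compared as CPM (counts scaled to library size with edgeR's TMM factors) or, between genes, as TPM (which also corrects for transcript length). GLIS3 followed the descriptions: it lay at 0.144 to 1.63 CPM in H47_KO against 1.45 to 6.47 in H47_Ctrl, with overlapping ends, and at 16.6 to 36.7 CPM in VP64_A against 1.91 to 6.31 in VP64_Ctrl. All 10 fibroblast markers examined had a median of at least 1 TPM and summed to between 2632 and 8342 TPM. The keratinocyte markers KRT1 and TP63, the endothelial marker KDR, the leukocyte marker CD3E and the melanocyte marker TYR were at 0 TPM in every library, and the summed markers reached at most 84.6 TPM for keratinocytes (KRT14 with a median of 1.91 and a maximum of 78.9, and KRT10 with 6.06 and 10.9), 1.51 for endothelium, 69.7 for leukocytes (CD68 reaching 69.6) and 0.879 for melanocytes. Of the smooth muscle markers ACTG2 and CNN1 had medians above 1 TPM, with a sum of 8.68 to 180.3 TPM, and MYH11 and DES had medians of 0. In bulk RNA, fewer cells expressing a gene and less RNA per cell cannot be told apart.

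Upstream DNA is shown for the most abundant pair of HOXA genes, both lower at 6 h, for the leading HOXD gene and for one gene of the silent HOXB cluster. Each window is the 250 bases before a RefSeq start site (GRCh38.p14), given 5′ to 3′ on the gene's strand. Capitals mark matches on either strand to TTTATNG (a CDX and posterior HOX motif), TGATTNAT (a PBX–HOX motif), TGGGGGGT (a GLIS core) or TGANTCA (the AP-1 motif). HOXA9 occupies chr7:27165538-27165787 (minus strand), HOXA10 at its second start chr7:27174321-27174570 (minus strand), HOXD11 chr2:176107030-176107279 (plus strand) and HOXB1 chr17:48531012-48531261 (minus strand). By the gene spans of GENCODE v44, the windows of HOXA9 and HOXD11 lie inside their own genes. The HOXA10 window lies inside both HOXA10 and HOXA9, and only the HOXB1 window lies before its gene.
HOXA9: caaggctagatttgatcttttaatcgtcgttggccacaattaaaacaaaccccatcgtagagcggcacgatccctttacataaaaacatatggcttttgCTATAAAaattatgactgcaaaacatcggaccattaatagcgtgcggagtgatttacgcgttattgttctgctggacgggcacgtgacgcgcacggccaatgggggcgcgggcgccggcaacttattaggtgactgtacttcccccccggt
HOXA10: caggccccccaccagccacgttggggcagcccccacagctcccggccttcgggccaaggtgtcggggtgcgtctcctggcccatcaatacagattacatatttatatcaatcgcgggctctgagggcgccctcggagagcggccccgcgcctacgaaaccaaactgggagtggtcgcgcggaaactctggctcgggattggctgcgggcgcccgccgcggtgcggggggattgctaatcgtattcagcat
HOXD11: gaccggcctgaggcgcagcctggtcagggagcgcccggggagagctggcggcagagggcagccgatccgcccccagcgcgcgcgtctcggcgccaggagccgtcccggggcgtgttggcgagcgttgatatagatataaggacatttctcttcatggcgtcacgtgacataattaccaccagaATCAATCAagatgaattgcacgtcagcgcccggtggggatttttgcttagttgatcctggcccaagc
HOXB1: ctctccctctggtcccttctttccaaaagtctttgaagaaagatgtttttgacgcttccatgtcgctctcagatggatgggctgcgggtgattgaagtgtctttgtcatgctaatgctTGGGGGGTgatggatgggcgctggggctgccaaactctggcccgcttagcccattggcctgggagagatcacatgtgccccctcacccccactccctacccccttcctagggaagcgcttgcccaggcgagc
The table of start sites held 27 windows for 20 of the 39 members. The capitals in HOXA9, which begin 151 bases before the start, are a CDX match that also spells TATAAA; the window of the other HOXA10 start, not printed, held the motif too, 223 bases before that start. In all, 7 of the 27 HOX windows held it, against 8.93% of all 35116 windows of the same length. These 7 are not separate loci: the windows of HOXC4 and HOXC5 are the same stretch, counted under both names. HOXA3 also entered through more than a single start. The capitals in HOXD11, 67 bases before the start, match the PBX–HOX motif, which was in 2 HOX windows (HOXA2 and HOXD11) and in 2.48% of all. The GLIS core in HOXB1 was shared with 1 of the 7 HOXA3 windows and was in 1.33% of all, and the AP-1 motif was in none of the HOX windows and in 6.57% of all. The HOX windows held a median of 19 CG dinucleotides, against 11 over all windows.

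The fibroblasts used a small part of the HOX system, and that part was posterior. A total of 6 genes reached a median of 1 TPM over the 48 libraries: HOXA10, HOXA9, HOXC10, HOXD11, HOXC9 and HOXA11, all of them from paralog groups 9 to 11. That is 15.4% of the HOX genes, against 32.6% of all 29744 rows. Genes of paralog groups 9 to 13 held 90.6% of all counts assigned to HOX genes and groups 4 to 8 held 8.38%. By cluster, HOXA held 64.3% of the counts, HOXC 23.4%, HOXD 12.3% and HOXB 0.

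**Figure D1:**
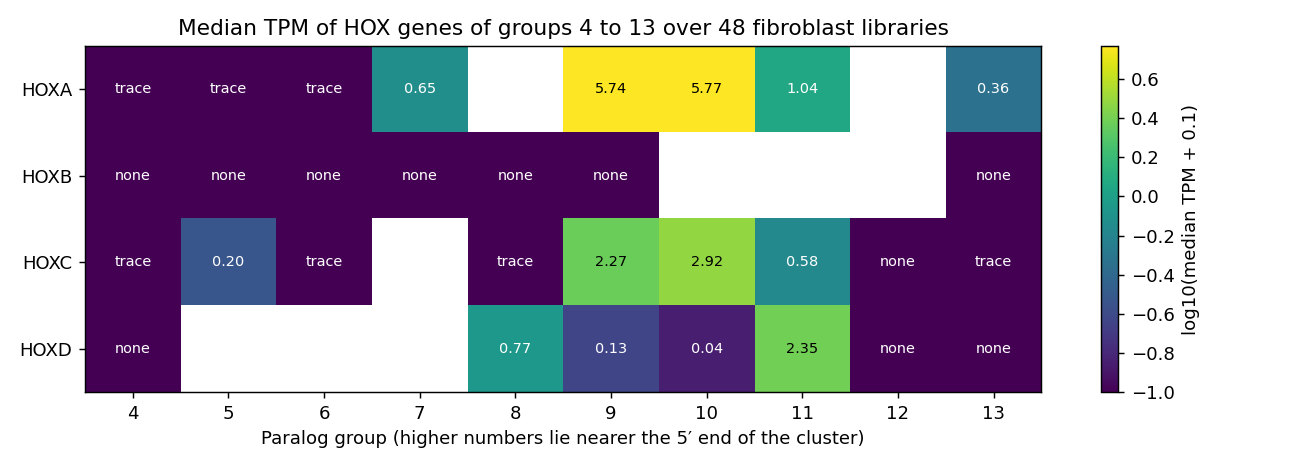
Median TPM over the 48 libraries for each HOX gene of paralog groups 4 to 13, with clusters as rows and paralog groups as columns; "none" is no count in any library, "trace" is counts in some libraries with a median of 0, and white cells are genes that do not exist in human. The colour scale is log10(median TPM + 0.1), and the 6 cells of at least 1 TPM sit in groups 9 to 11 of HOXA, HOXC and HOXD.

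HOXA10 and HOXA9, neighbouring genes of the Abdominal-B class, were the most abundant. The median of HOXA10 was 5.77 TPM (range 0.865 to 21.97) and that of HOXA9 was 5.74 TPM (0.631 to 13.7), so their ranges overlapped almost whole. HOXC10, which marks hindlimb and lower trunk, followed with 2.92 TPM (0.802 to 8.92), HOXD11, a gene of the distal limb and posterior trunk, with 2.35 TPM (0.497 to 7.18) and HOXC9, a gene of thoracic levels, with 2.27 TPM (0.236 to 5.04). HOXA11, which patterns the forearm and the reproductive tract, had a median of 1.04 TPM (0 to 2.82). Neighbours in this order overlapped in range, and none of these levels is high: 5647 of the genes in the table had a median above that of HOXA10.

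A further 8 genes had a count in at least 24 libraries but a lower median. Among them were HOXD8 (median 0.773 TPM), HOXA7 (0.653), HOXC11 (0.580), HOXA13 (0.364), HOXC5 (0.200), HOXD9 (0.133) and HOXD10 (0.0416). HOXA2, HOXA4, HOXA5, HOXA6, HOXC4, HOXC6, HOXC8 and HOXC13 had counts in 1 to 18 libraries, between 1 and 32 counts in all, and a median of 0.

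Paralog group 13, the most distal set, was split. HOXA13, which marks digits, genital tubercle and hindgut, had 195 counts in 36 libraries and reached 1.74 TPM. HOXC13, a gene of hair and nail, had 32 counts in 18 libraries. HOXB13, a prostate and hindgut gene, and HOXD13, a digit and genital gene, had no count in any library.

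The estimated count was 0 in every library for all 10 HOXB genes, from HOXB1 to HOXB13, and for HOXA3, HOXC12, HOXD1, HOXD3, HOXD4, HOXD12 and HOXD13. These 17 genes are 43.6% of the HOX genes, and 37.2% of all rows had no count either. A count of 0 over all libraries together allows a level of up to 0.0118 CPM (3 counts of the total), and in a single library it allows 0.281 CPM at the greatest depth and 1.29 CPM at the lowest. These limits cover counting error only.

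The order of levels was compared across the 16 conditions. Condition means put HOXA10 and HOXA9 in the first and second places in 10 of the 16 conditions, with HOXA10 first in 9 conditions and HOXA9 first in 4. The 6 conditions where another gene entered the leading pair were all 4 at 6 h, where HOXD11 or HOXC10 moved up, and H47_Ctrl and VP64_A at 12 h. In 14 of the 16 conditions the 5 highest genes came from the same set of 6, and in 43 of 48 libraries the single highest gene was HOXA9 or HOXA10.

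The summed HOX level was lowest in the middle of the time course. It had a median of 33.3 TPM at 0 h (24.8 to 55.0 over 12 libraries), 13.6 at 6 h (7.16 to 31.2), 20.01 at 12 h (10.5 to 29.3) and 36.3 at 24 h (17.6 to 62.3). The share of HOXA in that sum was at least 57.7% in every library at 0 h and at least 56.3% at 24 h, while at 6 h it was as low as 32.04%. Between 0 and 6 h the median CPM went from 25.7 to 9.14 for the HOXA sum, without overlap (21.3 to 29.5 against 5.39 to 11.3). It went from 8.60 to 6.00 for the HOXC sum and from 3.10 to 4.19 for the HOXD sum.

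HOXA10 carried the clearest change. In H47_Ctrl it measured 14.1, 13.1 and 17.7 CPM at 0 h, 6.02, 5.17 and 5.89 at 6 h, 1.19, 2.40 and 6.90 at 12 h and 17.7, 13.3 and 14.8 at 24 h. In H47_KO it measured 11.3, 10.3 and 12.1 CPM at 0 h, 5.65, 1.77 and 6.46 at 6 h, 6.65, 4.57 and 4.13 at 12 h and 22.1, 15.6 and 20.3 at 24 h. With or without the GLIS3 guide, Cas9 fibroblasts were low at 6 and 12 h and were at 13.3 CPM or more at 24 h, with no overlap between 0 h and either middle time. In VP64_Ctrl it measured 12.8, 13.7 and 13.7 CPM at 0 h, 3.79, 5.80 and 3.65 at 6 h, 6.98, 9.86 and 10.5 at 12 h and 21.4, 18.9 and 20.9 at 24 h. In VP64_A it measured 12.1, 10.3 and 14.4 CPM at 0 h, 3.57, 5.10 and 4.97 at 6 h, 6.41, 4.68 and 3.14 at 12 h and 7.86, 9.27 and 10.2 at 24 h. All 12 libraries at 0 h (10.3 to 17.7 CPM) lay above all 12 at 6 h (1.77 to 6.46).

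The fitted log2 change of HOXA10 from 0 to 6 h was -1.38 (SE 0.31) in H47_Ctrl, -1.21 (SE 0.35) in H47_KO, -1.61 (SE 0.26) in VP64_Ctrl and -1.43 (SE 0.26) in VP64_A. At 12 h it was -2.12, -1.12, -0.57 and -1.40 in the same order, and at 24 h 0.06, 0.79, 0.61 and -0.41. The value at 12 h in H47_Ctrl was -3.08 without replicate 3 of that time and -1.72 without replicate 1. The test over the 4 times (edgeR's quasi-likelihood F test with Benjamini–Hochberg adjustment over all genes tested) called it in every group, with adjusted p = 7.9e-06, 3.8e-06, 3.4e-07 and 3.1e-05. Reads shared between overlapping transcripts limit what a single gene's value means here. In GENCODE v44 HOXA10 (chr7:27170605-27180261) and HOXA9 (chr7:27162438-27175180) overlap on the minus strand. The estimated count was not a whole number in 44 of 48 libraries for HOXA10, but in only 6 for HOXA9. The reads of HOXA10 were split mainly with HOXA10-AS, an RNA on the opposite strand. In H47_Ctrl at 0 h HOXA10 had 104.145, 81.626 and 65.589 counts and HOXA10-AS had 15.855, 25.374 and 27.411. Each pair adds to a whole number.

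**Figure D2:**
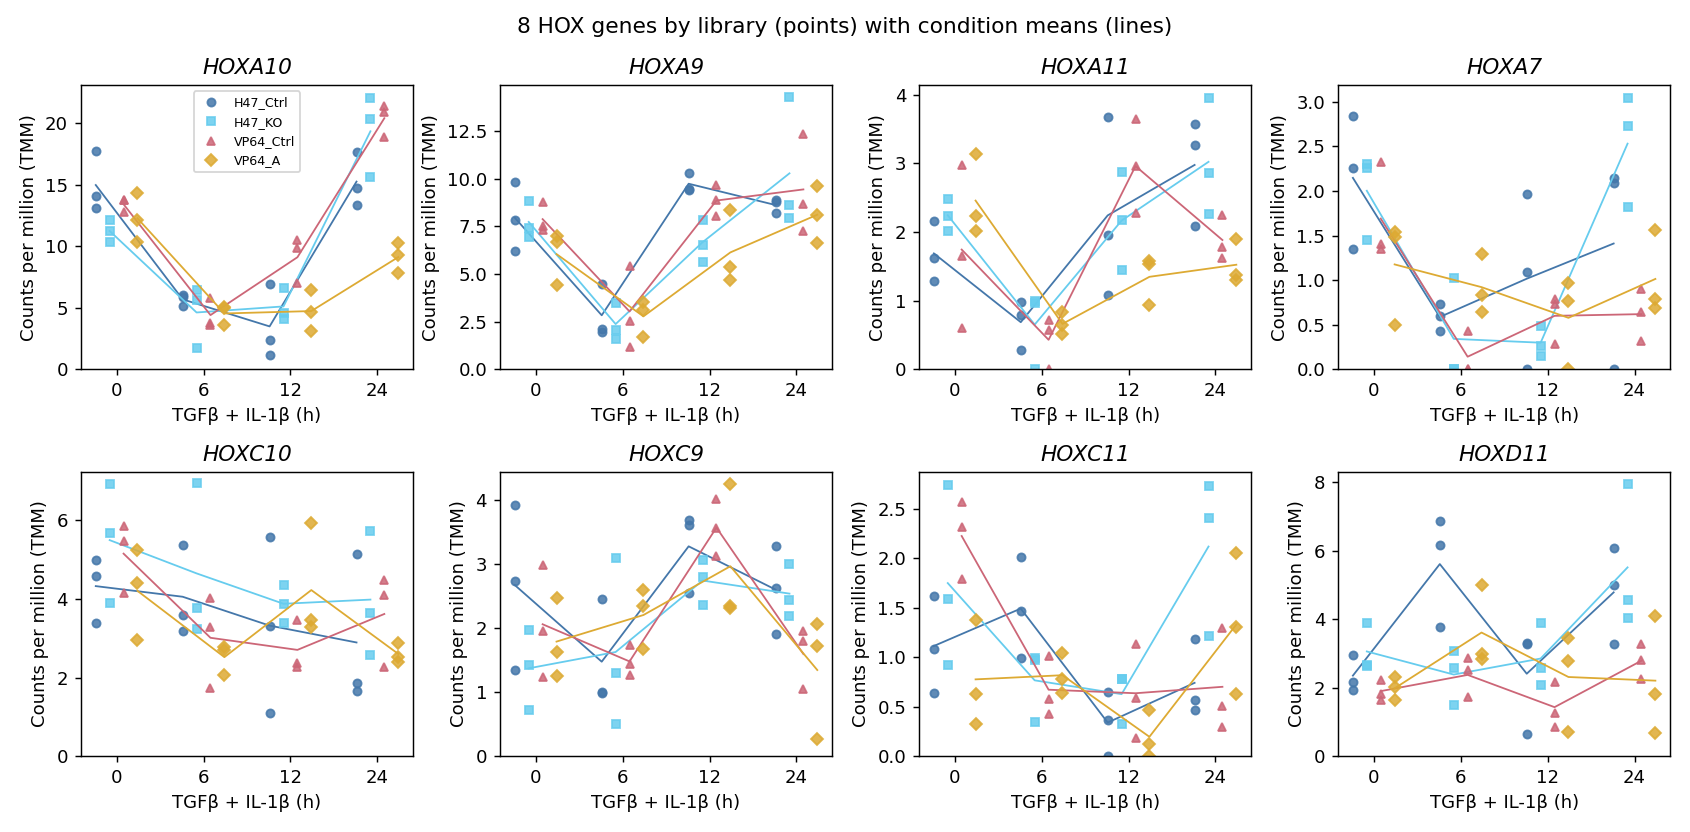
TMM-scaled CPM (vertical axis, linear from 0) of 8 HOX genes against hours of TGFβ and IL-1β; each point is a library, lines join the means of 3 libraries, and colours and symbols mark the 4 groups. HOXA10 at 0 h spans 10.3 to 17.7 CPM and at 6 h 1.77 to 6.46, and at 24 h the VP64_A points (7.86 to 10.2) sit below the VP64_Ctrl points (18.9 to 21.4).

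HOXA9 fell at 6 h too, and at 12 h it was near its starting level. It measured 7.83, 9.82 and 6.21 CPM at 0 h, 4.46, 2.10 and 1.96 at 6 h and 10.3, 9.48 and 9.43 at 12 h in H47_Ctrl. In H47_KO the values were 8.84, 6.92 and 7.44 CPM at 0 h, 2.06, 3.47 and 1.61 at 6 h and 5.65, 6.53 and 7.83 at 12 h. Within each of these groups the 6 h libraries lay below all others. VP64_Ctrl gave 7.54, 8.78 and 7.32 CPM at 0 h, 5.44, 2.52 and 1.16 at 6 h and 8.88, 8.02 and 9.66 at 12 h. VP64_A gave 6.70, 7 and 4.45 CPM at 0 h, 3.54, 1.71 and 3.10 at 6 h and 5.37, 8.35 and 4.69 at 12 h. Here as well the 6 h libraries did not overlap with those at 0 h.

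The log2 change of HOXA9 at 6 h was -1.42 (SE 0.32) in H47_Ctrl, -1.76 (SE 0.38) in H47_KO, -1.13 (SE 0.34) in VP64_Ctrl and -1.14 (SE 0.36) in VP64_A. At 12 h it lay between -0.23 and 0.27 and at 24 h between 0.09 and 0.38. The 4-time test called HOXA9 in every group (adjusted p = 0.00062, 0.00030, 0.011 and 0.013). Leaving out VP64_Ctrl 6 h replicate 2 or 3 raised its adjusted p in VP64_Ctrl to 0.0901 and 0.0558, and leaving out VP64_A 6 h replicate 2 raised it in VP64_A to 0.108, with the change at 6 h still negative (-0.94, -0.91 and -0.87).

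The counts of HOXA9, HOXA10 and their readthrough transcript were then added, a value that does not depend on how reads were divided between them. HOXA10-AS was left out of this sum, so reads split between it and HOXA10 are not covered. The log2 change of the sum at 6 h was -1.38 in H47_Ctrl, -1.42 in H47_KO, -1.44 in VP64_Ctrl and -1.33 in VP64_A. At 12 h the sum was still below 0 h (-0.80, -0.70, -0.27 and -0.74), and at 24 h it stood at 0.07, 0.62, 0.49 and -0.10. The 4-time test called the sum in all 4 groups, the highest adjusted p being 1.6e-05.

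The next gene towards the 5′ end, HOXA11, had few counts and was also lowest at 6 h. At 6 h its 12 libraries held 0 to 5 counts and 0 to 0.991 CPM, against 0.599 to 3.13 CPM at 0 h, and the ranges overlapped through a single VP64_Ctrl library at 0 h. Its log2 change at 6 h was -1.32 (SE 0.63), -1.80 (SE 0.70), -1.94 (SE 0.66) and -1.82 (SE 0.59) in H47_Ctrl, H47_KO, VP64_Ctrl and VP64_A. HOXA11 was called in H47_Ctrl (adjusted p = 0.046) and VP64_Ctrl (adjusted p = 0.015) and not in H47_KO (0.068) or VP64_A (0.096). In H47_Ctrl the call was lost on leaving out any 1 of its 12 libraries other than 12 h replicate 3 or 24 h replicate 1 (adjusted p up to 0.215), and in VP64_Ctrl without 6 h replicate 2 (0.0884).

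HOXA7, on the 3′ side of the pair and a gene of thoracic levels, passed the filter on low counts only in the Cas9 cells. There its log2 change was -1.91 (SE 0.74) at 6 h and -1.07 (SE 0.75) at 12 h in H47_Ctrl, which was not called (adjusted p = 0.19). In H47_KO it was -2.36 (SE 0.93) at 6 h and -2.63 (SE 0.81) at 12 h and was called (adjusted p = 0.0052), with 0.156 to 0.484 CPM at 12 h against 1.45 to 2.30 at 0 h. HOXA7 passed the filter through libraries at 0 and 24 h alone, so its lower values at 6 and 12 h are in part set by that selection. HOXA13, at the 5′ end of the cluster, was too low for these tests: it had 2 to 21 counts per library at 0 h and 0 to 2 at 6 h, where 7 of 12 libraries were at 0. The 6 h libraries were also shallower, and the median CPM was 0.856 at 0 h, 0 at 6 h, 0.259 at 12 h and 0.847 at 24 h.

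Of the HOXC genes only HOXC11 was called over time, in 1 group. HOXC10 measured between 2.97 and 6.92 CPM at 0 h, 1.74 and 6.94 at 6 h, 1.09 and 5.93 at 12 h and 1.66 and 5.73 at 24 h, so the times overlapped. Its log2 changes ran from -0.90 to 0.05 over the 12 steps, and no group's time course was called (adjusted p from 0.15 to 0.80). HOXC9 was not called in any group either (0.10 to 0.40). HOXC11, which patterns hindlimb, was called in VP64_Ctrl, where it measured 2.32, 2.57 and 1.80 CPM at 0 h, 0.430, 1.01 and 0.580 at 6 h, 0.592, 0.182 and 1.14 at 12 h and 0.299, 1.30 and 0.511 at 24 h. All later libraries lay below the 0 h libraries, with log2 changes of -1.76, -1.90 and -1.87 (adjusted p = 0.018). In the dCas9–VP64 cells HOXC11 passed the filter on low counts only through these 0 h libraries. The fall from 0 h and its call cannot be separated from that selection. The later libraries held only 1 to 4 counts each, against 28, 31 and 12 at 0 h. The call was lost without VP64_Ctrl 0 h replicate 1 (0.0654) or replicate 2 (0.0882).

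HOXD11 rose in H47_Ctrl. It measured 2.97, 1.93 and 2.16 CPM at 0 h, 6.18, 3.78 and 6.87 at 6 h, 3.31, 0.654 and 3.26 at 12 h and 6.09, 3.27 and 4.99 at 24 h. The libraries at 6 and 24 h lay above those at 0 h, with log2 changes of 1.22 (SE 0.42) and 1.05 (SE 0.44). It was called there (adjusted p = 0.041) and not in H47_KO (0.088), VP64_Ctrl (0.40) or VP64_A (0.44). The call was lost without 0 h replicate 2 or 3, 6 h replicate 1 or 3, 12 h replicate 2, or 24 h replicate 1 or 3 of H47_Ctrl (adjusted p up to 0.0992), and limma on log2(TPM + 1) gave 0.118.

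By count, the time course was called for 4 of 8 HOX genes tested in H47_Ctrl, where 27.6% of all genes were called, and for 3 of 8 in H47_KO, against 40.6%. It was called for 4 of 7 in VP64_Ctrl, against 38.8%, and for 2 of 7 in VP64_A, against 28.2%. Against these backgrounds the counts of HOX genes say little about the family as a whole. The direction at 6 h was more one-sided: 6 of 8, 7 of 8, 6 of 7 and 5 of 7 tested HOX genes lay below 0 h. Of all genes, 53.2%, 56.1%, 53.2% and 51.1% did. The HOX medians were -1.08, -1.20, -1.13 and -0.75 on the log2 scale, where the medians of all genes were -0.03, -0.10, -0.05 and -0.01. All tested HOXA genes lay below 0 h, whereas the HOXC and HOXD genes lay on both sides in every group. The genes tested are those that passed a filter on low counts, 8 or 7 of 39. A low gene can pass through the times where it is high. HOXA7 passed through libraries at 0 and 24 h alone, and HOXC11 in dCas9–VP64 cells through VP64_Ctrl at 0 h alone. Their falls from 0 h are in part set by that, so the direction and medians are not read as a family result. HOXA members make up 4 of the 8 and 3 of the 7, and their counts share overlapping transcripts.

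**Figure D3:**
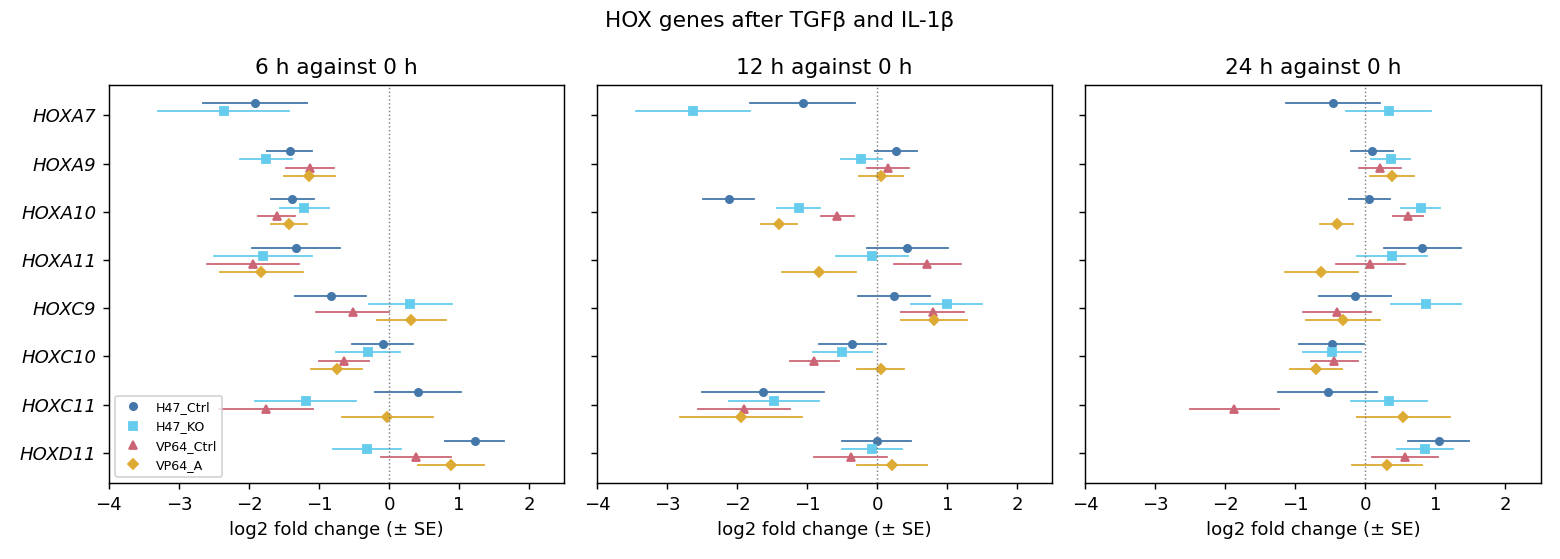
Log2 fold change against 0 h (horizontal axis) at 6, 12 and 24 h for each tested HOX gene, with symbols and colours for the 4 groups and bars of 1 SE; HOXA7 was tested in the Cas9 groups only. At 6 h the HOXA genes sit left of 0 in every group (HOXA10 from -1.61 to -1.21), and by 24 h HOXA9 is between 0.09 and 0.38.

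HOX genes were then compared between GLIS3 and control guides, separately for loss and gain of GLIS3. Averaged over the 4 times, no HOX gene was called between H47_KO and H47_Ctrl: 0 of 8, where 3.07% of the 10962 genes tested were called. None had an unadjusted p under 0.05, and DESeq2 called none either. The log2 difference was 0.07 for HOXA10 (95% interval -0.27 to 0.42), -0.20 for HOXA9 (-0.53 to 0.14), 0.27 for HOXC10 (-0.20 to 0.73) and -0.09 for HOXD11 (-0.56 to 0.37). The intervals were wider for HOXA11 (-0.56 to 0.72), HOXC9 (-0.81 to 0.27), HOXC11 (-0.30 to 1.24) and HOXA7 (-1.31 to 0.42), and the interval of HOXC11 reached past a log2 difference of 1 and that of HOXA7 past -1. The median over the 8 genes was -0.0091 and over all genes -0.0085.

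The single times in the Cas9 cells gave no call for a HOX gene at 0, 6, 12 or 24 h, where 0.301%, 0.319%, 0.0821% and 0.21% of all genes were called. An unadjusted p under 0.05 came from HOXD11 at 6 h (log2 difference -1.18, SE 0.47, adjusted p = 0.32) and from HOXC11 at 24 h (1.49, SE 0.65, adjusted p = 0.45). No HOX gene had a different time course in the 2 groups (0 of 8, where 0.0365% of all genes were called, and none had an unadjusted p under 0.05; DESeq2 called none).

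In the dCas9–VP64 cells 1 of 7 HOX genes was called between VP64_A and VP64_Ctrl over the mean of the 4 times, where 18.4% of the 10980 genes tested were called. It was HOXA10, with a log2 difference of -0.55 (SE 0.13, adjusted p = 0.0025). HOXA9 had the next lowest p, with a difference of -0.35 (95% interval -0.70 to -0.0065, adjusted p = 0.16). The differences were -0.12 for HOXC10 (-0.50 to 0.26), 0.24 for HOXD11 (-0.28 to 0.75), -0.12 for HOXA11 (-0.76 to 0.53), -0.38 for HOXC11 (-1.19 to 0.42) and 0.0040 for HOXC9 (-0.46 to 0.47). The median over the 7 genes was -0.12 and over all genes -0.0037.

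Taken time by time, HOXA10 was called at 12 and 24 h. At 0 h the VP64_A libraries (10.3 to 14.4 CPM) spanned those of VP64_Ctrl (12.8 to 13.7), and at 6 h the groups overlapped as well. At 12 h VP64_A ran from 3.14 to 6.41 CPM and VP64_Ctrl from 6.98 to 10.5, and at 24 h the ranges were 7.86 to 10.2 and 18.9 to 21.4, without overlap. The log2 difference was -0.14 (SE 0.22) at 0 h, 0.04 (SE 0.30) at 6 h, -0.97 (SE 0.27, adjusted p = 0.033) at 12 h and -1.15 (SE 0.24, adjusted p = 0.0020) at 24 h. No other HOX gene was called at a single time. At these times 9.41%, 3.76%, 4.31% and 4.13% of all genes were called. The call at 12 h was lost in 4 of the 6 fits that left out a library compared (VP64_A 12 h replicate 2 or 3, VP64_Ctrl 12 h replicate 2 or 3, adjusted p from 0.114 to 0.220), and the call at 24 h was kept in all 6.

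That the difference itself grew with time was not called. The test of group by time called 0 of 7 HOX genes, where 0.428% of all genes were called, and DESeq2 called none. An unadjusted p under 0.05 came from 2 of them, HOXA10 (adjusted p = 0.26 with edgeR) and HOXC11 (adjusted p = 0.56 with edgeR). HOXC11 had passed the filter on low counts only through VP64_Ctrl at 0 h. In the summed counts of HOXA9 and HOXA10 the difference over the mean of the 4 times was -0.46 (SE 0.10, adjusted p = 0.0011), with -0.70 at 12 h (adjusted p = 0.042) and -0.81 at 24 h (adjusted p = 0.0071). HOXA10 in the Cas9 arm had a log2 difference of 0.33 at 24 h (95% interval -0.25 to 0.90) when the GLIS3 guide was compared with its control.

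**Figure D4:**
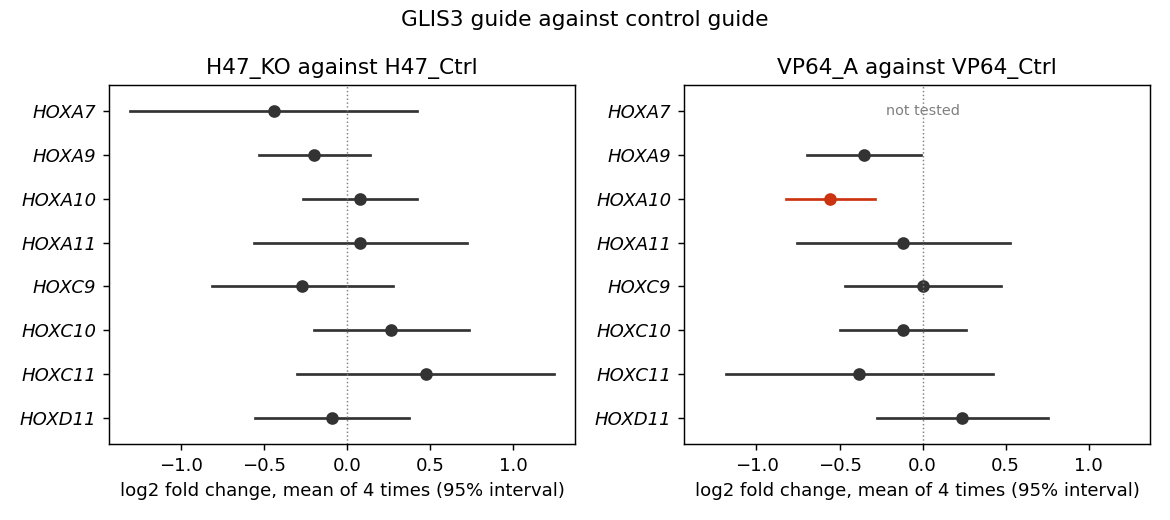
Log2 fold change of GLIS3 guide over control guide, averaged over 4 times (horizontal axis, points with 95% intervals), for Cas9 cells on the left and dCas9–VP64 cells on the right. HOXA10 in VP64_A, at -0.55 (interval -0.82 to -0.29), is drawn in red as the one gene called, and every other interval but that of HOXA9 on the right (-0.70 to -0.0065) includes 0.

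The 2 control groups were compared as well; they differ in the Cas9 protein and in the cells' derivation, which cannot be told apart. Between VP64_Ctrl and H47_Ctrl, averaged over the times and tested in a fit of all 48 libraries, 1 of 9 HOX genes was called, where 19.5% of 11422 genes were called. HOXD11 was lower in VP64_Ctrl, with a log2 difference of -0.73 (SE 0.24, adjusted p = 0.025). The call was lost with limma (adjusted p = 0.077 with a pseudocount of 1 TPM and 0.148 with 0.1 TPM) and without H47_Ctrl 0 h replicate 1, 12 h replicate 1 or 3, or 24 h replicate 1 (0.0539 to 0.0695). HOXA10 differed by 0.32 (95% interval 0.02 to 0.62, adjusted p = 0.13), HOXA7 by -0.89 (-1.72 to -0.056, adjusted p = 0.13), HOXA9 by 0.05 (-0.27 to 0.37) and HOXC10 by -0.02 (-0.43 to 0.40).

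Stability was then set against the spread between replicates. For each gene the SD of the 16 condition means of log2 CPM was divided by the SD that replicate scatter alone gives to a mean of 3, so that 1 means no more variation between conditions than between replicates. The ratio was 3.43 for HOXA10, 2.98 for HOXA9, 2.27 for HOXA11, 1.98 for HOXC11, 1.73 for HOXA7, 1.72 for HOXA13, 1.57 for HOXD11, 1.43 for HOXC9 and 1.20 for HOXC10. The median over the 9 genes was 1.73 and over all 11422 genes tested 1.68. The SD between conditions had a median of 0.67 for the HOX genes and 0.35 for all genes, and the SD within conditions was also larger, 0.54 against 0.34, at a median level of 1.25 against 3.51 log2 CPM. Among these 9 genes the ratio was lowest for HOXC10 and highest for HOXA10.

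Noncoding RNAs of the clusters were read beside the coding genes. Of the 19 on the list, 15 were rows of the table, 5 of those had no count, and 3 passed the filter: HOTAIR, HOXA10-AS and HOXA11-AS. HOTAIR, an RNA transcribed antisense within HOXC and known for its part in Polycomb silencing of HOXD, had a median of 6.35 TPM (0.436 to 27.5), in the range of HOXA10 and HOXA9. All 12 libraries at 0 h (10.0 to 22.3 CPM) lay above all 12 at 12 h (0.725 to 8.35), whereas the 6 h libraries (7.04 to 14.2) overlapped with both. Its log2 change at 12 h was -2.60 in H47_Ctrl, -1.45 in H47_KO, -1.91 in VP64_Ctrl and -1.36 in VP64_A, and the time course was called in all 4 (adjusted p = 0.00070, 0.015, 2.2e-05 and 0.0022). HOXA10-AS, on the opposite strand from HOXA10, was lower at 6 h in the 3 groups where it was called (-2.89 in H47_Ctrl, -2.22 in H47_KO and -2.29 in VP64_A) and lower in VP64_A than in VP64_Ctrl (-1.04, SE 0.34, adjusted p = 0.033). HOXA11-AS was called in H47_KO, VP64_Ctrl and VP64_A, with -1.91, -2.05 and -1.90 at 6 h. Use of strand in counting is not given in the sources used here. Reads were split between HOXA10 and HOXA10-AS, so the values of these RNAs are not separate measurements. The estimated counts of HOXA11 and HOXA11-AS were whole numbers in every library, so no such split was seen there. Reads placed whole in the wrong partner would not show.

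HOX cofactors were present. Of 11 cofactor genes 9 had a median of at least 1 TPM, led by MEIS1 at 18.05 TPM (3.66 to 34.02), which stabilizes HOX–PBX complexes. None of the 9 tested was called between H47_KO and H47_Ctrl (3.07% of all genes), and 3 of 9 were lower in VP64_A than in VP64_Ctrl (18.4% of all genes called in either direction): MEIS1 (-0.72, SE 0.11, adjusted p = 7.9e-06), PBX3 (-0.58, SE 0.17, adjusted p = 0.013) and TGIF1, a TALE repressor (-0.27, SE 0.09, adjusted p = 0.035). At 12 h alone MEIS1 was lower in VP64_A by a log2 difference of -1.34 (SE 0.23, adjusted p = 0.00020). The time course of the cofactors was called for 6 of 9 in H47_Ctrl, 3 in H47_KO, 4 in VP64_Ctrl and 4 in VP64_A, against 27.6%, 40.6%, 38.8% and 28.2% of all genes. PBX3 and TGIF1 were called in all 4, with PBX3 higher at 6 h by 0.84, 1.02, 0.72 and 0.66 and TGIF1 by 0.93, 1.07, 1.05 and 1.16 in the same order.

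Among 23 chromatin regulators of the clusters 18 were tested. The only call between a GLIS3 guide and its control over the mean of the times was KMT2A, a Trithorax methyltransferase that keeps HOX genes active. It was lower in VP64_A (-0.41, SE 0.13, adjusted p = 0.031), where 18.4% of all genes were called. KMT2A was also higher in VP64_Ctrl than in H47_Ctrl (0.38, SE 0.13, adjusted p = 0.037), where 19.5% of all genes were called. The time course was called for 6, 5, 5 and 4 of the 18 in H47_Ctrl, H47_KO, VP64_Ctrl and VP64_A, which is near or below the 27.6%, 40.6%, 38.8% and 28.2% of all genes. KDM6B, a demethylase that removes Polycomb marks, was among them in all but VP64_Ctrl, with log2 changes at 6 h of 3.97, 3.39 and 3.69. These start near the floor: at 0 h it held 1 to 6 counts per library in those groups, against 20, 12 and 17 in VP64_Ctrl. At 0 h it was called lower in VP64_A than in VP64_Ctrl (-2.06, SE 0.61, adjusted p = 0.030), where 9.41% of all genes were called. Of 11 upstream regulators of the clusters only the retinoic acid receptor RARG reached a median of 1 TPM, CDX2 and CDX4 had no count, and no gene of the list was called between a GLIS3 guide and its control over the mean of the times. Over time, 1 of 4 tested was called in H47_Ctrl, 2 of 4 in H47_KO and 1 of 3 in each dCas9–VP64 group. EGR2 was called in H47_Ctrl and H47_KO (5.98 and 3.66 at 6 h), from 0 to 7 counts per library at 0 h. RARG was called in H47_KO, VP64_Ctrl and VP64_A (-1.17, -0.58 and -0.81 at 12 h).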

How the data were processed

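Per the labels and the study's methods, the authors made Nextera XT libraries, trimmed reads with Trim Galore, removed ribosomal reads with SortMeRNA, aligned with STAR to GRCh38 and quantified genes with Salmon. Versions and the annotation are not given in the sources used here. The deposited tables hold Salmon's estimated counts per gene and TPM for 29744 genes. The estimated counts were rounded and tested with edgeR 4.0.16 (R 4.3.3): TMM scaling, filterByExpr (minimum count 10, total 15), quasi-likelihood F tests, Benjamini–Hochberg adjustment over all genes tested, called below 0.05. Each arm of 24 libraries was fitted as 8 conditions, and controls of both arms were compared in a fit of all 48. Intervals are 95% and follow from the p-value and its degrees of freedom. Alternatives used DESeq2 1.42.0, its size factors, no filter, limma 3.58.1 on log2 TPM, a replicate block, only the libraries compared, each library left out, and the counts of HOXA9 and HOXA10 summed (the last chosen after seeing the data). The tests were tested on simulated data, with changes placed only in better expressed genes and with a fixed spread. That trial does not cover the HOX genes with low counts. Full values are given for the leading gene of each cluster, every gene called and paralog group 13. Results for some genes are not reported here. The members and lists were chosen with earlier results of these data known. Replicate numbers did not pair libraries (correlation of deviations between same-numbered libraries, median 0.0086 and 0.0084 in the arms).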

Additional observations from a re-analysis of the deposited data

How the results depend on the processing

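Counts of HOX genes called moved by over 1.5 times in few settings, and the cause was not tested. In the dCas9–VP64 cells, over the single times, 2 calls became 1 with no filter on low counts and 1 with only the libraries compared. The time course in H47_Ctrl gave 2 calls in place of 4 with limma on log2(TPM + 1) and 2 on log2(TPM + 0.1), and that in H47_KO gave 6 in place of 3 with each of these. The comparison of VP64_Ctrl with H47_Ctrl gave 0 in place of 1 with both. Leaving out each library in turn gave 1 to 2 calls for the single times of dCas9–VP64 cells, 2 to 4 for H47_Ctrl, 3 to 4 for H47_KO, 2 to 5 for VP64_Ctrl, 1 to 3 for VP64_A, 0 to 2 for the 2 controls and 1 for VP64_A against VP64_Ctrl. It gave 0 for all comparisons of H47_KO with H47_Ctrl and for both tests of group by time. The number of genes with a median of at least 1 TPM stayed at 5 to 6 with a library left out. That set depends on the threshold. Below 1 TPM the next to enter are HOXD8, HOXA7 and HOXC11 (0.773, 0.653 and 0.580 TPM), of paralog groups 8, 7 and 11. At a threshold of 2 TPM HOXA11 (1.04) leaves.

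HOXC9 between VP64_A and VP64_Ctrl, at 0.0040 and not called, turned to -0.0013 with DESeq2's size factors, -0.033 with the replicate block and -0.16 and -0.27 with limma, and ran from -0.14 to 0.12 with a library left out. HOXA10 between H47_KO and H47_Ctrl (0.07, not called) turned to -0.11 when summed with HOXA9 and ran from -0.028 to 0.31 with a library left out, and HOXA11 between VP64_A and VP64_Ctrl ran from -0.25 to 0.19. Of the called values, HOXA10 at 12 h in the dCas9–VP64 cells missed the threshold with no filter (adjusted p = 0.054), with limma (0.17 and 0.11) and with only the libraries compared (0.16). HOXA9 in VP64_A missed it with limma (0.068 and 0.071). HOXA11 in H47_Ctrl was called in 2 of 7 other settings and missed the threshold with no filter (0.078), with limma (0.063 and 0.092), with only the libraries compared (0.059) and with the replicate block. HOXD11 in H47_Ctrl missed it with limma (0.12 and 0.14). With the replicate number as a block, 3 calls in place of 4 were made in H47_Ctrl, where HOXA11 missed the threshold (0.057), and the block changed no other count. Depth limits the low genes: at 6 h HOXA7, HOXA11 and HOXA13 held at most 5 counts per library.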

Other observations

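Transcription factors other than HOX genes that mark body position were also measured. Of 45 on the list, 9 had a median of at least 1 TPM and 18 had no count. TBX4, a hindlimb gene, had no count in any library, while TBX5, a forelimb and heart gene, had a median of 2.33 TPM (0.245 to 48.9) and PITX1, a hindlimb gene, a median of 0.875 TPM (0.194 to 4.36). TBX5 fell at 6 h in all 4 groups, by log2 changes of -2.11, -3.11, -3.26 and -2.13 in H47_Ctrl, H47_KO, VP64_Ctrl and VP64_A, and its time course was called in each (highest adjusted p = 0.00013). TBX3 was higher at 6 h in all 4 by 0.79, 0.79, 0.87 and 0.96 (highest adjusted p = 0.00069), and PRRX1, a limb mesenchyme gene, was higher at 12 h by 1.37, 1.44, 1.49 and 1.30 (highest adjusted p = 0.00105). The time course was called for 4 of 13 tested genes of the list in H47_Ctrl, 8 of 13 in H47_KO, 6 of 12 in VP64_Ctrl and 8 of 12 in VP64_A, where 27.6%, 40.6%, 38.8% and 28.2% of all genes were called.

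Over the mean of the 4 times, PRRX1 (-0.72, SE 0.13), TBX3 (-0.71, SE 0.08) and TWIST2 (-0.32, SE 0.08) were lower in VP64_A than in VP64_Ctrl, 3 of 12 tested (18.4% of all genes called), and 0 of 13 was called between H47_KO and H47_Ctrl (3.07% of all genes). Between the 2 control groups TBX5 (0.80, SE 0.18), TBX15 (0.50, SE 0.15) and TWIST2 (0.31, SE 0.10) were higher in VP64_Ctrl and PRRX1 (-0.48, SE 0.11) was lower, 4 of 16 tested, where 19.5% of all genes were called.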
